A study of Mus musculus with 40 samples.

Results

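The 73 probes described here were read as detected on every array of C57BL/6 (B6) mice and on at most 1 of 8 arrays of DBA/2 (DBA) and SJL mice. They were chosen on detection scores in 12 inbred mice without a transgene, of which 4 were B6, 4 DBA and 4 SJL, and probes whose symbols begin with Zfp, Rpl, Rps, Psm or H2- were left out. They make up 73 of 25697 probes on the array and 73 of 10841 probes detected on all 4 B6 arrays; 6 further probes met the detection rule and carried one of the excluded symbols. The members bear the symbols of 65 genes, 68 probes with a symbol and 5 without.

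Each array held hippocampal RNA of a single mouse, 12 months old. The remaining 28 arrays held hippocampus of mice with an APP transgene (Tg), also aged 12 months, whose labels give the percentage of each strain in the background. In the order used below, B6-rich mice had 62.5% B6 and 37.5% SJL (n = 6), SJL-rich mice 31% B6 and 69% SJL (n = 6), SJL-richest mice 16% B6 and 84% SJL (n = 6), DBA-rich mice 16% B6, 9% SJL and 75% DBA (n = 7), and DBA/SJL mice 8% B6, 42% SJL and 50% DBA (n = 3). All Tg mice carried the APP transgene and no inbred mouse did, so levels in the 2 kinds of mice are set side by side without a test, and the percentages are shares of the whole background, not genotypes at a gene. Sex and the promoter of the transgene are not given in the labels used here.

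An inbred strain is a line of mice that are genetically alike, and strains differ from each other in sequence and in copy number at many genes. A bead array probe is a short oligonucleotide that captures 1 stretch of 1 transcript, so its signal depends both on how much transcript there is and on whether that stretch is present and matches the probe. In mice of mixed background, each region of the genome can carry the alleles of either parental strain, and littermates of 1 cross differ in which regions they carry.

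Arrays detected from 41.5% to 50.0% of their probes, at median signals of 18.2 to 29.3. Of 8 excitatory neuron markers, 6 were detected on all 40 arrays, as were all 8 astrocyte markers. The strain of an inbred array was taken from the number in its title. In the deposited value table, which follows accession order, 8 inbred columns stand in another place and 6 of them carry another strain's label, while no Tg column moves. Read in that order the rule found 0 members, so the choice of members depends on the title number. The list also moves with the limits of the rule: a score of 0.95 in place of 0.99 gave 54 probes, 33 of them members, a stricter score gave 56 with 46 members, detection on 0 other arrays gave 52, and on up to 2 gave 104.

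On the B6 arrays the mean signal of a member lay between 38.0 and 1303 on the deposited linear scale, with a median of 75.0, and 28 members averaged 100 or more. The signals of B6 mice did not overlap with those of DBA and SJL mice for 62 members and overlapped for 11. A total of 52 members were detected on no DBA or SJL array and 21 on 1 such array. Of these 21 detections, 17 came from the 2 DBA arrays numbered 31 and 32, where at least 47.3% of all probes were detected. DBA arrays 37 and 38, with 42.6% and 41.5% of all probes detected, gave 0. The second-highest score on the other strains' arrays was 0.98997 for Bbs1, Col26a1 and Kctd14, just inside the limit, and 0.99123 for Il1rap, Lrrc40 and Pdhb, just outside it. These inbred values chose the members and are given as a description.

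The brightest member was the probe of Abhd16a, which encodes a phospholipase that makes lysophosphatidylserine. Its normalized log2 signal was 10.34, 10.49, 10.49 and 10.34 in B6 mice, against 4.87, 4.95, 5.16 and 5.33 in DBA mice and 5.08, 5.33, 5.24 and 5.47 in SJL mice. No DBA or SJL array detected it, so the measured means give only a bound, which is at least 26.4-fold over DBA and at least 24.7-fold over SJL. Here and below, such a bound sets the mean of the brighter group against the higher of the probe's own value and the lowest signal among detected probes on each array.

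Fcer1g, the shared signalling chain of Fc receptors in microglia and other myeloid cells, read 9.33, 9.41, 9.37 and 9.60 in B6 mice, against 4.40 to 4.52 in DBA and 4.36 to 4.47 in SJL mice. The bounds were at least 13.3-fold over DBA and at least 12.5-fold over SJL. Sspn encodes sarcospan, a membrane protein of the dystrophin complex, and read 9.05, 9.35, 9.10 and 9.01 in B6 mice, at least 10.8-fold above DBA and at least 10.1-fold above SJL. Mak16, whose yeast counterpart acts in assembly of the large ribosomal subunit, read 8.69, 8.84, 8.71 and 8.60 in B6 mice, at least 8.10-fold above DBA and at least 7.58-fold above SJL. For each of these 4 probes the 4 B6 mice lay close together and far above the other 8 mice.

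The next brightest members were Ttc27 (at least 7.13-fold over DBA), Ctsc (ILMN_3008858, at least 5.69-fold) for the lysosomal protease cathepsin C, Ccl21c (at least 5.06-fold) for a chemokine that binds CCR7, Prdx2 (at least 4.54-fold) for a peroxiredoxin, ILMN_2769656 with no gene name (at least 4.35-fold) and Trim11 (at least 3.97-fold) for a ubiquitin ligase. Ccl21c belongs to a family of near-identical copies, and the copy that its probe reads is uncertain. One SJL array detected the Ccl21c probe, at 6.79. The lower end of the list was close to the detection limit: 26 members averaged under 60 on the B6 arrays.

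In Tg mice, more members were detected where the background held more B6. The B6-rich mice detected between 41 and 57 of the 73 members with a median of 48.5, the SJL-rich mice 37 to 47 with a median of 44.5, the SJL-richest mice 18 to 41 with a median of 27.5, the DBA-rich mice 22 to 36 with a median of 29, and the 3 DBA/SJL mice 16, 18 and 17. As a share of all pairs of a member and an array this was 67.6% in B6-rich, 58.9% in SJL-rich, 37.9% in SJL-richest, 39.9% in DBA-rich and 23.3% in DBA/SJL mice. Over all 13589 probes tested, the same shares were 86.3%, 91.7%, 86.8%, 89.2% and 86.1% in the same order of groups. The B6-rich and SJL-rich ranges overlapped, as did those of the SJL-richest and DBA-rich groups, which have the same B6 share. The B6-rich and SJL-richest ranges met at 41.

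Arrays numbered 1 to 8 and 9 to 16 may be separate chips, since 8 is the number of arrays on such a chip; slide numbers are not given. Within arrays 1 to 8, the B6-rich mice detected 41, 44, 57, 57 and 50 members, against 19, 41 and 26 in the SJL-richest mice. Within arrays 9 to 16, the single B6-rich mouse detected 47, against 18, 29 and 33 in the SJL-richest mice and 16, 18 and 17 in the DBA/SJL mice. The SJL-rich mice lie on arrays 18 to 23, and the DBA-rich mice on arrays 10, 17 and 24 to 28. For the SJL-rich mice, background and array position cannot be told apart.

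Of the 73 members, 54 were detected on more of the 6 B6-rich than of the 6 SJL-richest arrays, 16 on as many and 3 on fewer. A total of 25 members were detected in every B6-rich mouse, 11 in every SJL-rich, 6 in every SJL-richest, 5 in every DBA-rich and 9 in every DBA/SJL mouse. Conversely, 5 members were detected in no B6-rich mouse, 9 in no SJL-rich, 20 in no SJL-richest, 17 in no DBA-rich and 46 in no DBA/SJL mouse. There were 12 members detected in all 6 B6-rich and in 0 of 3 DBA/SJL mice. The groups held 3, 6 or 7 mice, so counts in every or in no mouse do not compare directly between them. The same counts over all tested probes were not made. The probes of Btrc and Traip, both of ubiquitin ligase components, were detected in all 28 Tg mice, whatever the background, and the probe of Cxadr in 0.

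The B6-rich and SJL-richest Tg mice differ in the share of B6 and hold no DBA. All 73 members entered a limma fit of 13589 probes on the 28 Tg arrays, and 12 members were higher in B6-rich mice while 0 were lower (Benjamini-Hochberg adjusted p under 0.05). The filter of detection on at least 4 of 40 arrays was met by every member through the 4 B6 arrays that chose it. With detection on at least 4 of the 28 Tg arrays instead, 68 members entered and 10 passed, against 164 of all 13413 probes called higher. Cxadr and Fastkd3, 2 of the 12, did not enter. The 12 are 16.4% of the members, against 1.22 percent of all tested probes called higher and 1.96 percent called in either direction. At an unadjusted p under 0.05 by limma, 32 members were higher and 0 lower, against 2018 of all 13589 tested probes in either direction. The log2 change was positive for 66 members and its median was 0.67, against -0.01 over all tested probes. In this bulk tissue, fewer cells of a type and less RNA per cell cannot be told apart. Fold changes of dim probes are understated, since the normalization adds an offset of 16 to every signal.

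Of 20 members with a log2 change above 1, 6 passed and 14 did not, and of the other 53 members 6 passed. Among the 14 were Abhd16a, Fcer1g and Mak16, whose mice fell into high and low within a group. Abhd16a had the largest change, 2.07 ± 0.78 (SE), at an adjusted p of 0.179 by limma. It read 10.56, 9.35, 10.30, 10.47, 9.56 and 10.26 in B6-rich mice, against 5.56, 9.36, 4.84, 9.52, 9.26 and 9.51 in SJL-richest mice. Thus 4 SJL-richest mice read near the lower B6-rich values and 2 read near the DBA and SJL inbred level.

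The members are given below by the role of their genes, a grouping made after the members were known. Among 8 immune and microglial probes, 1 was higher in B6-rich mice than in SJL-richest mice, the probe of Samsn1, an adaptor protein of immune cells. Samsn1 read 4.71, 6.54, 6.34, 6.23, 6.37 and 6.57 in B6-rich mice, against 4.71, 4.84, 4.62, 4.56, 4.66 and 4.63 in SJL-richest mice. All B6-rich mice but 1 lay above every SJL-richest mouse, and the change was 1.46 ± 0.26 (SE, n = 6 each, adjusted p = 0.00496 by limma). No SJL-richest array detected it, and the bound is at least 1.47-fold.

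Fcer1g read 4.48, 9.55, 8.43, 9.44, 9.43 and 4.55 in B6-rich mice, against 8.49, 4.39, 4.38, 8.18, 4.36 and 4.38 in SJL-richest mice. High and low mice occurred in both groups, and the change of 1.95 ± 0.99 (SE) did not pass (adjusted p = 0.369 by limma). The 2 probes of Ctsc had changes of 1.10 and 0.77 and did not pass, with adjusted p-values of 0.458 and 0.232 by limma. Ccl21c had a difference of 1.39 (adjusted p = 0.358 by limma), and Ly96, the partner of the receptor TLR4, one of 0.23, and neither passed. Stab1, a scavenger receptor, was among the 5 lowest members at -0.04.

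Of 8 microglial markers tested, 1 was higher in B6-rich mice, the complement gene C1qa at a log2 change of 0.47, and the median change of the 8 was 0.18. Their mean log2 level ranged from 8.19 to 8.64 in B6-rich mice, against 8.00 to 8.22 in SJL-richest mice, with log2 differences of 0.69 for C1qb, 0.50 for C1qc, 0.30 for Trem2, 0.05 for Aif1, 0.03 for Cx3cr1, 0.00 for Tmem119 and -0.03 for P2ry12, none of which passed. The part of these differences in the changes of Samsn1, Fcer1g and Ctsc was not tested. The 10 choroid plexus markers had a median change of -1.85 with 0 of 10 called, and a mean log2 level from 6.48 to 9.02 in B6-rich mice, against 7.47 to 10.45 in SJL-richest mice; their part in the members' changes was not tested. Of the 8 oligodendrocyte markers tested, 2 were higher in B6-rich than in SJL-richest mice. Of 6 excitatory neuron markers tested, 1 was lower in B6-rich mice, Slc17a7 (a vesicular glutamate transporter), at a mean log2 level of 11.66 in B6-rich mice, against 12.49 in SJL-richest mice (adjusted p = 0.0389 by limma), and the median change of the 6 was 0.12.

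Of 12 probes of genes for nuclear proteins, ribosome assembly and RNA, 1 passed, Fastkd3, which encodes a mitochondrial RNA-binding protein. It was detected in 3 of 6 B6-rich mice and in no other Tg mouse, and changed by 0.86 ± 0.22 (SE, adjusted p = 0.0400 by limma), with no fold given because the bound is under 1. Mak16 read 8.08, 7.23, 7.84, 7.93, 7.17 and 6.68 in B6-rich mice, against 4.41, 4.42, 7.25, 4.39, 6.96 and 7.23 in SJL-richest mice. The SJL-richest mice were split evenly between detected and undetected, and the change of 1.71 ± 0.53 (SE) did not pass (adjusted p = 0.102 by limma). The probe of the histone gene H2aj was detected in 5 of 6 B6-rich mice, against 1 of 6 SJL-richest mice, and its change of 2.04 ± 0.57 (SE) did not pass (adjusted p = 0.0608 by limma).

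Of 13 probes of lipid, sugar and redox enzymes, 2 were higher in B6-rich mice. Lpcat2, an acyltransferase of platelet-activating factor synthesis, had a lowest, median and highest log2 signal of 6.20, 6.91 and 7.43 in B6-rich mice, against 4.65, 5.54 and 6.68 in SJL-richest mice. The ranges overlapped, and the change was 1.29 ± 0.34 (SE, adjusted p = 0.0464 by limma). Them4, an acyl-CoA thioesterase, read 5.89, 6.17 and 6.91 by the same measures in B6-rich mice, against 4.81, 5.18 and 5.85 in SJL-richest mice. Its groups did not overlap, and the change was 1.08 ± 0.24 (SE, adjusted p = 0.0241 by limma). Every B6-rich mouse lay above every SJL-richest mouse for 6 members, against 0.971 percent of all tested probes.

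Prdx2 had a difference of 0.73 that did not pass (adjusted p = 0.391 by limma). The probe of Me1, cytosolic malic enzyme, stood among the 5 lowest at -0.07. The Me1 probe was detected in 4 of 6 SJL-rich mice and in no other Tg mouse. Another probe of the gene (ILMN_2774690) averaged 7.42 for the SJL-rich group and 7.14 for the DBA-rich group. Its mean was lower in the other Tg groups, at 6.28 (SJL-richest), 6.10 (DBA/SJL) and 5.99 (B6-rich). The SJL-rich mice all lie on arrays 18 to 23, and the part of array position in the Me1 signals was not tested.

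Among 11 probes of membrane, transport and receptor genes, 2 were higher, Ninj2 and Cxadr. Ninj2, a cell adhesion protein, had a lowest, median and highest log2 signal of 6.39, 6.68 and 7.08 in B6-rich mice, against 5.46, 5.86 and 6.31 in SJL-richest mice, with no overlap and a change of 0.85 ± 0.20 (SE, adjusted p = 0.0308 by limma). Cxadr encodes the coxsackievirus and adenovirus receptor, an adhesion protein of cell junctions. Its probe read 6.49, 6.49, 6.14 and 6.08 in B6 inbred mice but was detected in no Tg mouse. It read 4.41, 4.60, 5.00, 5.04, 4.97 and 4.66 in B6-rich mice, against 4.47, 4.38, 4.35, 4.41, 4.42 and 4.29 in SJL-richest mice. The change of 0.39 ± 0.08 (SE) passed (adjusted p = 0.0141 by limma) although both groups lay below the detection limit, so no fold is given. The difference of 1.57 for Sspn did not pass (adjusted p = 0.393 by limma), with 5 of 6 B6-rich and 3 of 6 SJL-richest mice detecting it.

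Of 4 probes of cilium and centrosome genes, 2 were higher. Pibf1, a centrosomal protein needed for cilia, read 6.78, 6.43, 6.02, 6.24, 6.39 and 7.03 in B6-rich mice, against 4.72, 4.46, 6.43, 6.31, 4.54 and 4.69 in SJL-richest mice. Both the third and the fourth SJL-richest mouse reached the B6-rich range, and the change was 1.29 ± 0.30 (SE, adjusted p = 0.0284 by limma). Wdpcp, a planar cell polarity effector that acts at the base of cilia, read 5.63, 6.10 and 6.49 (lowest, median and highest) in B6-rich mice, against 4.70, 4.93 and 5.81 in SJL-richest mice, and changed by 0.99 ± 0.22 (SE, adjusted p = 0.0240 by limma). The probe of Bbs1, a subunit of the BBSome, had a difference of 0.08 and Tubgcp4, of the gamma-tubulin ring complex, one of 0.48, and neither passed.

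Of 10 probes of signalling and ubiquitin genes, 2 were higher. Rnd3 read 6.54, 6.21, 6.75, 6.11, 6.58 and 5.39 in B6-rich mice, against 4.57, 4.56, 4.56, 5.49, 4.61 and 4.45 in SJL-richest mice. The change was 1.56 ± 0.40 (SE, adjusted p = 0.0417 by limma), and 1 SJL-richest mouse lay just above the lowest B6-rich mouse. No SJL-richest array detected it, and the bound is at least 1.62-fold. Rcan2, a regulator of calcineurin, read 5.79, 6.07 and 6.45 (lowest, median and highest) in B6-rich mice, against 4.93, 5.26 and 5.41 in SJL-richest mice, with no overlap and a change of 0.83 ± 0.19 (SE, adjusted p = 0.0241 by limma). It was detected on 0 of 6 SJL-richest arrays, and the bound is at least 1.41-fold. The difference of 1.44 for Trim11 did not pass (adjusted p = 0.282 by limma), and Asb1, the substrate receptor of a ubiquitin ligase, had the lowest change of all members at -0.13.

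Neither of 2 matrix probes, Pxdn and Col26a1, passed, with changes of 0.21 and 0.09. Of the other 13 probes, 2 were higher. ILMN_1233531, which carries no gene name, had a change of 1.69 ± 0.35 (SE, adjusted p = 0.0141 by limma). It read 4.63, 6.38, 6.51, 6.46, 6.54 and 6.55 in B6-rich mice, against 4.45, 4.50, 4.48, 4.49, 4.45 and 4.57 in SJL-richest mice. No SJL-richest array detected it, and the bound is at least 1.53-fold. Fam199x, for which no role is given here, had a lowest, median and highest log2 signal of 5.13, 5.57 and 5.84 in B6-rich mice, against 4.58, 4.76 and 5.11 in SJL-richest mice. Its groups did not overlap, with a change of 0.75 ± 0.14 (SE, adjusted p = 0.00835 by limma), but 4 of 6 B6-rich and 0 of 6 SJL-richest mice detected it, and no fold is given because the bound is under 1. Tmem116 and Xntrpc were among the 5 lowest, at -0.08 and -0.06.

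The brighter 36 members, by their level in B6 inbred mice, had a median change of 1.00 between B6-rich and SJL-richest mice, and the dimmer 37 a median of 0.23; 6 of each passed. Leaving out 1 mouse left between 6 and 13 members higher. The count was 7 without the first B6-rich mouse, 7 without the third SJL-richest mouse and 6 without the fifth, and 2 on arrays 1 to 8 alone, where 5 B6-rich mice stood against 3 SJL-richest mice and 39 of all tested probes passed. Samsn1, ILMN_1233531, Fam199x and Cxadr passed in each of the 12 fits that left out 1 mouse, Rcan2 in 11, Wdpcp in 10, Them4 in 9, Ninj2 and Pibf1 in 7, Fastkd3 and Lpcat2 in 3 and Rnd3 in 2. Another 9 settings changed the processing or the arrays used, among them the arrays of the 2 groups only and arrays 1 to 8 alone. In these, Samsn1, ILMN_1233531, Fam199x, Rcan2 and Wdpcp passed in 8, Them4 and Pibf1 in 7, Ninj2 and Rnd3 in 4 and Lpcat2 in 2. Cxadr passed in 4 and Fastkd3 in 2 of the 8 that tested them. With runs of 8 arrays as a block 8 members passed, 7 of them among the 12; Rnd3, Them4, Ninj2, Lpcat2 and Fastkd3 did not pass.

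The 3 DBA/SJL mice had the lowest B6 share, 8%, and the contrast with them shares the 6 B6-rich arrays with the one above, so the values are only set side by side. Of the 73 members, 21 were higher in B6-rich than in DBA/SJL mice and 0 lower by limma, which is 28.8%, against 2.3 percent of all tested probes called higher and 4.15 percent called in either direction. At an unadjusted p under 0.05 by limma, 40 were higher and 0 lower, against 2632 of all 13589 tested probes in either direction. The median log2 change of the members was 0.75, against -0.01 over all tested probes. Every B6-rich mouse lay above every DBA/SJL mouse for 29 members, against 5.55 percent of all tested probes.

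Abhd16a read 4.88, 5.32 and 5.08 in the DBA/SJL mice, all in the range of DBA and SJL inbred mice, and the B6-rich mice were higher by 4.99 ± 0.95 (SE, adjusted p = 0.00324 by limma), at least 22.5-fold. Mak16 read 4.34, 4.46 and 4.57 in DBA/SJL mice and was higher in B6-rich mice by 3.03 ± 0.65 (SE, adjusted p = 0.00844 by limma), at least 3.72-fold. Wdr46, a nucleolar protein of small ribosomal subunit assembly, is read by 2 members, and both were higher, by 1.94 (at least 1.88-fold) and 1.72 (at least 1.49-fold). B3galt4, a ganglioside galactosyltransferase, was higher by 0.76 (at least 1.21-fold). None of the probes of Abhd16a, Mak16, Wdr46 and B3galt4 was detected in a DBA/SJL mouse. By role, the 21 comprised 2 immune and microglial, 5 nuclear, ribosomal and RNA, 6 enzyme, 2 membrane, 1 cilium and 2 signalling probes, and 3 of the others.

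Nudt6, a Nudix hydrolase whose gene lies antisense to Fgf2, read 4.64, 4.54 and 4.46 in DBA/SJL mice and was higher in B6-rich mice by 2.56 ± 0.55 (SE, adjusted p = 0.00762 by limma), at least 2.87-fold. Gm5148, a predicted gene, was higher by 2.43 ± 0.52 (SE, adjusted p = 0.00748 by limma), at least 2.82-fold. Slc5a5, which encodes the sodium iodide symporter, was higher by 2.30 (at least 2.84-fold), and H2aj by 2.45 (at least 2.51-fold). No DBA/SJL mouse detected any of these 4 probes, so the fitted changes rest on values below the detection limit on that side. Slc5a5, H2aj and the others named in this comparison beyond the naming rule were named after their values were seen. Fcer1g read 4.38, 4.39 and 4.44 in DBA/SJL mice, all undetected, and its difference of 3.24 ± 1.21 (SE) did not pass (adjusted p = 0.131 by limma); 2 of the 6 B6-rich mice were equally low. Rnd3 was detected in all 3 DBA/SJL mice, at 5.75, 5.87 and 5.93, and its difference of 0.41 did not pass.

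Of the 8 oligodendrocyte markers tested, 6 were higher in B6-rich than in DBA/SJL mice, with mean log2 levels of 11.51 to 11.99 in B6-rich mice, against 10.98 to 11.29 in DBA/SJL mice; their part in the members' changes was not tested. The 10 choroid plexus markers had a median change of -2.12 with 0 called, and mean log2 levels of 6.48 to 9.02 in B6-rich mice, against 8.67 to 9.77 in DBA/SJL mice, and their part was not tested either. With runs of 8 arrays as a block, 6 of the 21 members passed, the probes of Abhd16a, Wdr46 (both), B3galt4, Fam199x and Ypel5, and 137 of all tested probes. Under that block Mak16, Nudt6 and Gm5148 did not pass, at adjusted p-values of 0.0845, 0.157 and 0.192 by limma; 5 of the 6 B6-rich mice lie in arrays 1 to 8 and all 3 DBA/SJL mice in arrays 9 to 16. Leaving out 1 mouse left between 7 and 23 members higher. The lowest counts were 11, 7 and 11, without each of the 3 DBA/SJL mice in turn. Abhd16a, Nudt6, Gm5148 and the Wdr46 probe ILMN_1256643 passed in each of these 9 fits without the block, Mak16 in 8 and H2aj in 1.

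Over all 28 Tg mice, the log2 signal was fitted on the percentage of B6, with the percentage of DBA and the runs of 8 arrays in the model. Here 10 members rose with the B6 share and 0 fell, which is 13.7%, against 1.03 percent of all tested probes rising and 1.62 percent called in either direction by limma. At an unadjusted p under 0.05 by limma, 37 rose and 0 fell, against 2122 of all 13589 tested probes in either direction. The slope was positive for 67 members and its median was 0.14 log2 units per 10% of B6. Per 1% of B6 the median was 0.0136 for the members, against -0.00017 over all tested probes. The members that rose were Fam199x (slope 0.19, adjusted p = 0.00243 by limma), Samsn1 (0.34), ILMN_1233531 (0.40), Cxadr (0.08), Ypel5 (0.20), Pibf1 (0.30), Wdpcp (0.21), Them4 (0.22), Ninj2 (0.19) and Btrc (0.19). In the 18 mice without DBA 5 members rose, 4 of them among these 10, and without a filter 4 rose. In 8 other settings Fam199x, Samsn1 and ILMN_1233531 passed in all, Them4 and Wdpcp in 6, Ypel5 in 5, Ninj2 and Pibf1 in 4 and Btrc in 2, and Cxadr in 3 of 7. This fit uses the mice of both contrasts above and is not independent of them.

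The B6 share did not order the groups for every member. Samsn1 was detected in 5 of 6 B6-rich, 0 of 6 SJL-rich, 0 of 6 SJL-richest, 4 of 7 DBA-rich and 0 of 3 DBA/SJL mice, so the DBA-rich group stood above the SJL-rich group at a lower B6 share. Nudt6 was detected in 6 B6-rich, 0 SJL-rich, 3 SJL-richest, 3 DBA-rich and 0 DBA/SJL mice. Abhd16a was detected in 6, 5 and 5 mice of the 3 groups without DBA, in the order B6-rich, SJL-rich and SJL-richest, and in 0 of 7 DBA-rich and 0 of 3 DBA/SJL mice. Ccng2, a cyclin, was detected in 3 B6-rich, 0 SJL-rich, 1 SJL-richest, 4 DBA-rich and 0 DBA/SJL mice.

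Each member was then read as detected or undetected in each of the 28 Tg mice, and pairs of members were compared mouse by mouse. Over 2625 pairs of probes of different genes, the median number of mice in the same state was 15 of 28. Some pairs shared the state in nearly all mice. Nudt6 and Gm5148, which lie 8 genes apart on chromosome 3 in the reference order, shared it in 28 of 28, both detected in 12 mice and both undetected in 16. Samsn1 and the unnamed ILMN_1233531 also shared it in 28 of 28, with 9 mice detecting each. In both, the first B6-rich mouse was low and the same 4 DBA-rich mice were high.

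Mak16 and Fut10, a fucosyltransferase, lie next to each other and shared the state in 25 mice. Fut10 and Tnks, the telomere-associated enzyme tankyrase, shared it in 26. B3galt4 and Wdr46, also next to each other on chromosome 17, shared it in 23 with each Wdr46 probe, and Abhd16a with a Wdr46 probe in 26. Commd2 shared it with both Nudt6 and Gm5148 in 25, and Prdx2 with Slc5a5 in 25. Members of the same gene did so in 23 mice for the 2 Ctsc probes, 24 for Mboat2 and 26 for Wdr46. Among 63 members with a known chromosome that were detected in 3 to 25 of the 28 mice, pairs on the same chromosome shared the state in a median of 19 mice (111 pairs), against 16 for pairs on different chromosomes (1839 pairs). Of the same-chromosome pairs 7 reached 25 mice or more, and of the pairs on different chromosomes 0. These counts are a description over the same 28 mice, and pairs that share a member are not independent.

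Sequences upstream of the start were read for 5 genes of the pairs on chromosomes 3 and 17, to show what the reference holds beside members that were on and off together. They come from RefSeq on GRCm38.p6, a C57BL/6J reference, and give 250 bases 5′ of the start on the gene's own strand. Capitals mark every match, on either strand and with overlaps counted, to the CCAAT box (CCAAT), to a TATA box (TATAAA), to the GC box (GGGCGG) or to an ETS core (CCGGAA). The window of Nudt6 is chr3:37419597-37419846 on the minus strand, that of Gm5148 is chr3:37724361-37724610 on the minus strand, that of Wdr46 is chr17:33940473-33940722 on the plus strand, that of B3galt4 is chr17:33951489-33951738 on the minus strand, and that of Abhd16a is chr17:35089041-35089290 on the plus strand.
Nudt6: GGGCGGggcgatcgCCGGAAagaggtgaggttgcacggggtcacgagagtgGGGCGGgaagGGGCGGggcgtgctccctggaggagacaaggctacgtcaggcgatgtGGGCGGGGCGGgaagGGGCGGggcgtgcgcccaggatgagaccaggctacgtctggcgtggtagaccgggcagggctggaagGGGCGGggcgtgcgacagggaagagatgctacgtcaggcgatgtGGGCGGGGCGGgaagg
Gm5148: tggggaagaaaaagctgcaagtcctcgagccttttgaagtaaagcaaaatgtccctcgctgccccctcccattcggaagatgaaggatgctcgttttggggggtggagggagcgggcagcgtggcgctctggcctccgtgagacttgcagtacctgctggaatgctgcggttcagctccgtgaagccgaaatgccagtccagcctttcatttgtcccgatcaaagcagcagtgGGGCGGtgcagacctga
Wdr46: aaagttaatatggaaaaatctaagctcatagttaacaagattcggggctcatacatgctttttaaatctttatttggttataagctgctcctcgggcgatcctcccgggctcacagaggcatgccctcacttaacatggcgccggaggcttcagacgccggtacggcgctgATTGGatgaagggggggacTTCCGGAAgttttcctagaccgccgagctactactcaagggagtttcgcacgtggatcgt
B3galt4: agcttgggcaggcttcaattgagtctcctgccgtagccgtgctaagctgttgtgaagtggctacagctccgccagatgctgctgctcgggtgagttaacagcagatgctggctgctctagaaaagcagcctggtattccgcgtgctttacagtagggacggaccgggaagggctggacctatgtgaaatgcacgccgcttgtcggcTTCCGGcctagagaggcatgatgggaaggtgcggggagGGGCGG
Abhd16a: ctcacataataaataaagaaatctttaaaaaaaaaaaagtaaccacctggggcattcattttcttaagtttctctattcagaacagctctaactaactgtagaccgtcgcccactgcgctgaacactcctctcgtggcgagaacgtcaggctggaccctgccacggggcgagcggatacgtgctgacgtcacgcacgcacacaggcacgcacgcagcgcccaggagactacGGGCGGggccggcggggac

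The Nudt6 window held 9 matches to GGGCGG, and the windows of Gm5148, B3galt4 and Abhd16a 1 each. CCGGAA matched 2 times in the Wdr46 window, where the 2 matches overlap on opposite strands, and 1 time each in those of Nudt6 and B3galt4, and CCAAT 1 time in that of Wdr46. Of all 32851 promoters in the table, 32.7% held a GC box, 12.0% an ETS core, 33.9% a CCAAT box and 12.4% a TATA box. Of 63 promoters listed for 52 member genes, the shares were 55.6%, 20.6%, 39.7% and 11.1% in the same order. The members were chosen as detected in hippocampus, and no share was taken over promoters of detected genes alone. Whether the differences are particular to the members was not tested. A match is a description of these letters and the windows share no motif among all 5 genes. The sequences of the probes themselves were not used here, so whether a strain difference lies under a probe was not tested.

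For 24 genes of 25 members the array holds other probes that are not members, 38 in all, which gives 40 pairs of a member with another probe of its gene. Of the 38, 29 probes of 21 genes were detected on all 12 inbred arrays, so in these genes a transcript was measured in every DBA and SJL mouse, while the member was detected in at most 1 of the 8. For Mak16 the other probe averaged 8.09 ± 0.05 in B6 mice, against 8.04 ± 0.09 in DBA and 7.71 ± 0.18 in SJL mice (SD, n = 4 each). Atp2c1, a calcium and manganese pump of the Golgi, gave 7.71 ± 0.06 in B6 mice, against 7.69 ± 0.27 in DBA and 7.37 ± 0.25 in SJL mice with its other probe (SD, n = 4 each). The Atp2c1 member itself read 7.42 to 7.74 in B6 mice, against 4.55 to 4.65 in DBA and 4.62 to 4.67 in SJL mice.

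Other probes did not all behave so. Some that were detected on all 12 inbred arrays were also lower in DBA and SJL mice. An Mboat2 probe (ILMN_1229343) averaged 8.71 in B6 mice, against 6.29 in DBA and 6.55 in SJL mice. A Fut10 probe (ILMN_3011294) averaged 7.42 in B6 mice, against 6.10 in DBA and 6.08 in SJL mice. Of the 38 other probes, 2 were detected in some B6 mice and on no DBA or SJL array. Prdx2 has 1 other probe at 13.08 ± 0.07 in B6 mice, against 13.34 ± 0.07 in DBA and 13.27 ± 0.07 in SJL mice, and another (ILMN_2638354) at 9.44 ± 0.08 in B6 mice, against 7.28 ± 0.16 in DBA and 7.27 ± 0.15 in SJL mice (SD, n = 4 each). The other probe of Lpcat2 was detected in no B6 mouse, 2 DBA and 1 SJL mice, at 4.78 ± 0.12 in B6 mice, against 5.77 ± 0.35 in DBA and 5.79 ± 0.16 in SJL mice. The other probe of D830030K20Rik was detected in all B6 and DBA mice and in no SJL mouse, at 7.39 ± 0.06 in B6, against 7.34 ± 0.20 in DBA and 4.88 ± 0.10 in SJL mice. These inbred values of other probes share the mice of the rule and carry no test.

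In Tg mice, the 38 other probes had a median log2 change of 0.10 between B6-rich and SJL-richest mice, with a range from -0.29 to 1.92. Of these 38, 4 were higher in B6-rich mice and 0 lower by limma, against 1.22 percent of all tested probes called higher. The 4 were both other probes of Rcan2, 1 of Kctd14 and that of D830030K20Rik. In 30 of 40 pairs the member had the higher log2 difference. The 40 pairs come from 25 members in the same mice, so they are not independent. The member minus the other probe was tested for every pair of tested probes of 1 gene on the array, and 3 of the 40 pairs passed, against 0.784 percent of all 4593 pairs. At an unadjusted p under 0.05 there were 13 of 40, and the number over all pairs at that level was not counted.

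For Wdpcp the member stood at 0.99 and the other probe at -0.06, a gap of 1.05 ± 0.25 (SE, adjusted p = 0.0411 by limma). For Cxadr the member stood at 0.39 and the other probe at -0.25, a gap of 0.64 ± 0.12 (SE, adjusted p = 0.00511 by limma), with the member below detection in both groups. For D830030K20Rik the member stood at 0.29 and the other probe higher at 1.92. The gap was -1.63 ± 0.34 (SE, adjusted p = 0.0191 by limma), again with the member below detection in both groups. The other D830030K20Rik probe averaged 7.24 ± 0.60 in B6-rich mice, against 5.31 ± 0.94 in SJL-richest mice (SD, n = 6 each).

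Pibf1 did not pass, with 1.29 for the member and 0.09 for the other probe (gap 1.20 ± 0.30, SE, adjusted p = 0.0511 by limma). Mak16 had 1.71 for the member and 0.10 for the other probe, and the gap of 1.61 ± 0.53 (SE) did not pass (adjusted p = 0.224 by limma). In the same mice the other Mak16 probe averaged 8.19 ± 0.09 in B6-rich mice, against 8.09 ± 0.04 in SJL-richest mice (SD, n = 6 each), and was detected in all of them. For Rcan2 the member stood at 0.83 and the other probes at 0.45 and 0.50, and neither gap passed (adjusted p = 0.280 and 0.450 by limma). Lpcat2 had 1.29 for the member and -0.23 for the other probe, a gap that did not pass (adjusted p = 0.139 by limma). That other probe was detected in 0 of 6 B6-rich and 0 of 6 SJL-richest mice.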

How the data were processed

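Total RNA of hippocampus from 40 mice was hybridised to Illumina mouse Ref-8 BeadChips, 1 mouse per array, per the labels. The deposited table of non-normalized values gives, per the file headers, a linear signal intensity and a detection score for each probe and array; the score was read as 1 minus the detection p, and 0.99 or more as detected. Columns were assigned through the number in the title; 0 columns were left unused. The deposited value table, also on an intensity scale, follows accession order and served as an alternative. How the authors exported these files is not stated in the sources used here.

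Intensities of 40 arrays were background-corrected with the negative-control model inferred from detection p-values, offset by 16 and quantile-normalized (neqc), then taken as log2. Probes detected on at least 4 of 40 arrays were kept (13589). Tests used limma 3.58.1 in R 4.3.3 (lmFit, eBayes, two-sided, Benjamini-Hochberg over all tested probes, threshold 0.05), checked on simulated data. The design text's t-test was run as an alternative on these normalized values and probes, so it does not repeat the authors' own processing. Precision is limited by the number of arrays. The labels' amyloid values were not used here.

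Members, marker lists and comparisons were chosen with earlier results of these data known. Named members are the 10 brightest in B6 mice, the 10 largest that passed against SJL-richest mice, the 5 lowest, up to 10 with another probe of the gene, the 3 nearest each side of the limit, and neighbours within 10 genes; others were added after their values were seen. Gene names come from the platform annotation, which gives 1 symbol for 23978 probes and none for 1719. Fold bounds use the lowest detected signal per array.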

Additional observations from a re-analysis of the deposited data

Results flagged for a closer look

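Of 31 groups checked among the members that passed, 5 had a sample far from the rest by Dixon's test, which chance gives in about 5% of groups. In B6-rich Tg mice, the first mouse had the lowest signal of ILMN_1233531, at 4.63, and of Samsn1, at 4.71. In SJL-richest Tg mice, the fourth mouse had the highest Rnd3 signal, at 5.49, the second the highest Wdpcp signal, at 5.81, and the sixth the highest ILMN_1233531 signal, at 4.57, which is still undetected.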

How the results depend on the processing

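Over 114 results for named members, 1599 alternative values kept their direction and their side of the threshold, 126 kept the direction and lost the call, 20 gained it, and 0 reversed. The number of members was 0 in accession order of the value table. Members higher in B6-rich than in SJL-richest Tg mice numbered 7 with quantile normalization without background correction and 7 with the deposited value table. They numbered 2 on arrays 1 to 8 alone (chosen after seeing the data) and 6 to 13 with 1 mouse left out. By the methods' t-test, run on the values and probes of the main fit, they numbered 1 after Benjamini-Hochberg and 0 at its stated threshold. At an unadjusted p under 0.05 that t-test gave 33 members higher, against 2266 of all 13589 tested probes in either direction. All probes called in that comparison (267) numbered 138 without a filter, 162 with runs of 8 arrays as a block, 165 with the arrays of the 2 groups only, 39 on arrays 1 to 8, 16 and 0 by the t-test at the same 2 thresholds, and 90 to 342 with 1 mouse left out. Against DBA/SJL mice, members higher numbered 6 and all probes 137 with the runs as a block, and 7 to 23 members and 145 to 680 probes with 1 mouse left out; the members' median change was 0.925 with the deposited value table. Members rising with B6 share numbered 5 in the 18 mice without DBA and 4 without a filter, and all probes 87, 114 without a filter and 135 on arrays 1 to 16. The cause of these shifts was not tested. No paired analysis was possible because replicate numbers only name arrays within a group. Probes near the detection limit, which are most of the dimmer members, have the least certain values.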
